A study of Mus musculus with 42 samples.

Results

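The 46 genes described here encode plasma proteins of the complement, clotting, anticoagulant and fibrinolytic systems, and they were chosen by symbol from a list. Of these, 45 were matched by Ensembl identifier to a row of a count table with 43629 rows, and the 46th, Klkb1, plasma prekallikrein, was not analysed here. By arm, 22 belong to complement, 15 with Klkb1 to clotting, 4 to the anticoagulant proteins and 5 to fibrinolysis. The 45 passed the filter on low counts in liver, and 24 of them passed it in kidney.

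Complement and clotting are cascades of proteases that circulate as inactive precursors and activate one another by cleavage. Complement is started by C1q bound to antibody or by mannose-binding lectin bound to sugars, converges on the cleavage of C3, and ends in a pore built from the terminal components. Clotting ends with thrombin cutting fibrinogen into fibrin, which plasmin later dissolves. The cascades are restrained by antithrombin, protein C and C1 inhibitor, among others. Most of these proteins are secreted by hepatocytes, and several of them, fibrinogen and C3 among them, are classical acute phase proteins, whose liver transcripts rise with interleukin-6 during inflammation.

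The mice were UM-HET3 males, a genetically heterogeneous stock bred by crossing inbred strains, so that each animal carried its own mixture of alleles. They started at 3 months of age, ate a Purina 5LG6 diet with or without a compound for 1 month, and were 4 months old at sacrifice. Liver was sequenced for 3 compounds with 4 libraries each: 30 ppm of AS-703026, which blocks the kinase MEK, 75 ppm of enzastaurin, which blocks protein kinase C, and 50 ppm of GDC-0941, which blocks PI3-kinase. Kidney was sequenced for the same compounds at the same doses, for the mTOR inhibitors AZD8055 at 20 ppm and KU0063794 at 10 ppm, and for 6.3 ppm of ascorbyl-palmitate, a vitamin C ester that dissolves in fat, with 4 libraries each, and for 6 control libraries on the unsupplemented diet. No liver control is among the libraries analysed here, so the liver comparisons set one compound against another and cannot say which of them differs from an untreated liver. The submitters describe the libraries of a group as biological replicates.

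Liver libraries held 1084591 to 4361115 counts and kidney libraries 863605 to 5691067, from CEL-seq, which counts the 3′ ends of polyadenylated transcripts. Levels are given in the usual CPM unit, with library sizes scaled by edgeR's trimmed mean of M-values (TMM), and serve to compare one gene across libraries and not genes with each other. Liver was checked by its markers: Alb, the albumin gene, was at 8123 to 27804 CPM in the 12 liver libraries, and 7 proximal tubule markers summed to no more than 3.31 CPM in any of them. In 28 kidney libraries Alb was at most 11.8 CPM, but AZD8055 replicate 4 held 236 CPM of it and enzastaurin replicate 1 held 630.4 CPM. These 2 kidney libraries were also the 2 highest of 30 for 14 of the 45 genes. Kidney medians are therefore given without them, and the calls against kidney controls with and without them.

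The members that moved most, described further down, include the 3 fibrinogen chain genes, which lie side by side on chromosome 3, and C3 on chromosome 17. The bases just upstream of their RefSeq start sites (build GRCm38.p6) are shown here, 5′ to 3′ on the strand of each gene, because cytokine-driven liver transcription of these genes is classically assigned to this stretch. Each run is 250 bases long except that of Fga, which stops after 173 bases where the annotated gene begins. Capitals mark matches, on either strand, to 4 motifs: TTCNNNGAA (bound by STAT proteins), CTGGGAA (named as an interleukin-6 response element), TTGCNNAA (bound by C/EBP proteins) and the palindromic motif of HNF1.
Fga, chr3:83025903-83026075, plus strand: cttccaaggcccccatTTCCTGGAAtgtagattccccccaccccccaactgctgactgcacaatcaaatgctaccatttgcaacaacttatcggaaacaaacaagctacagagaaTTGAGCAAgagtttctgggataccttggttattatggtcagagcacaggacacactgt
Fgb, chr3:83049864-83050113, minus strand: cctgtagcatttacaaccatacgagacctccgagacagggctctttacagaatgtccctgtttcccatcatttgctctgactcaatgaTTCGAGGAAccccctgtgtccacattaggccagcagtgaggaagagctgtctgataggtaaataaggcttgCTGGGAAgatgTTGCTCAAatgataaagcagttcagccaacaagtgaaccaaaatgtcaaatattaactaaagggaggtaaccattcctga
Fgg, chr3:83007474-83007723, plus strand: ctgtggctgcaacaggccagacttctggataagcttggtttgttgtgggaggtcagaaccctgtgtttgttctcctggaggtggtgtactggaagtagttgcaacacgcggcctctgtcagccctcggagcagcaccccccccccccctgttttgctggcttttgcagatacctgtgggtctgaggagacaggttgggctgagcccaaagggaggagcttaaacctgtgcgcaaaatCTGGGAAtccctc
C3, chr17:57228137-57228386, minus strand: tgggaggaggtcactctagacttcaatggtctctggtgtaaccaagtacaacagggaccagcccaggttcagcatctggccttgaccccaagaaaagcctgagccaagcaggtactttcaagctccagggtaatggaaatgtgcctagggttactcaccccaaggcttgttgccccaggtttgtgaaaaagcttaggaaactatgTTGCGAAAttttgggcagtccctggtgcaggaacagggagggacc
In these runs Fga held TTCNNNGAA starting 234 bases before the RefSeq start and TTGCNNAA at 135 bases. Fgb held TTCNNNGAA at 162, CTGGGAA at 91 and TTGCNNAA at 80 bases before the start, and no 2 matches in the printed runs overlapped. Fgg held CTGGGAA at 13 bases, and C3 held TTGCNNAA at 45 bases. A match describes the letters and is not evidence of a bound site.

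A RefSeq promoter of this kind was found for 34 of the 45 genes, 14 of the 19 that are called higher in liver below and 20 of the others. TTCNNNGAA occurred in 4 of the 14 (Fga, Fgb, C8a and Pros1) and in 2 of the 20, against 7.02% of all 32851 promoters of the same length. TTGCNNAA occurred in 5 of the 14 and 4 of the 20, against 9.56% of all promoters. CTGGGAA was in 2 of the 14 and 3 of the 20, against 9.1%, and in F9 and Masp2 it overlapped a TTCNNNGAA match. The HNF1 motif was in none of the 14 and 1 of the 20 (Hc), against 0.0609%.

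In liver, 14 of the 45 genes were higher under AS-703026 than under enzastaurin and 19 were higher than under GDC-0941, by edgeR's quasi-likelihood test at an adjusted p under 0.05. Of all 9490 genes tested, 2.95% were called in the first comparison (1.95% higher) and 3.35% in the second (2.05% higher). None of the 45 was called lower in either, where 1% and 1.3% of all genes were. At an unadjusted p under 0.05, C6, C8g, F11 and Serpind1 were lower than under enzastaurin and F11 was lower than under GDC-0941. DESeq2 called 1 of the 45 lower than under enzastaurin and none lower than under GDC-0941, while limma voom called none lower in either. The fit without a filter on low counts called 2 and 1 lower.

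The 14 genes called against enzastaurin were all among the 19 called against GDC-0941: the complement genes C3, C8a and Serping1, the clotting genes Fga, Fgb, Fgg, Fgl1, Kng1, Kng2, F7 and F10, the anticoagulant Pros1, and Cpb2 and Vtn of fibrinolysis. Over all tested genes, 1.25% were called higher and 0.548% lower in both comparisons. C1qa, C1qb, Mbl1, Cfi and Hrg were called against GDC-0941 alone. The comparison of enzastaurin with GDC-0941, given further down, called none of these 5. The 2 comparisons share their AS-703026 libraries. An edgeR test over the 3 groups at once called 17 of the 45, against 3.36% of all genes, which are the 19 without C1qa and C1qb.

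The median log2 difference over the 45 genes was 0.36 against enzastaurin and 0.47 against GDC-0941, and over all 9490 genes it was -0.01 and -0.00. All 4 AS-703026 libraries stood above all 8 others for 16 of the 45 genes, against 2.17% of all genes, and below all 8 for none, against 1.71%. The 16 are Hrg, Cfi and the 14 genes called in both comparisons.

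**Figure D1:**
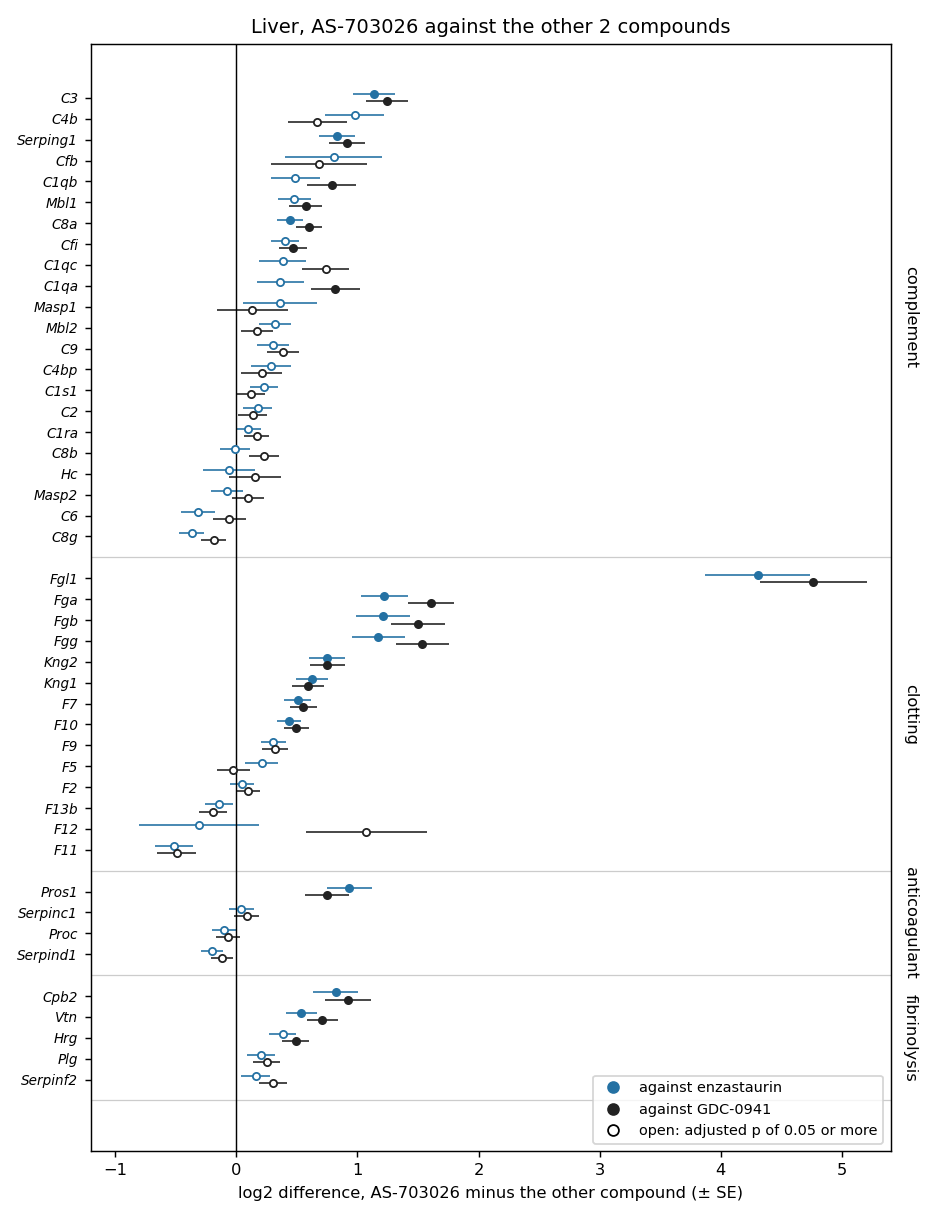
Log2 difference between AS-703026 and each other compound in liver, with its standard error, for the 45 genes by arm; filled points have an edgeR adjusted p under 0.05 and 4 libraries stand behind each group. Fgl1 lies far to the right of the other genes at 4.30 and 4.76, the 3 fibrinogen chains and C3 lie above 1, and no filled point lies left of 0.

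The share of counts on 13 satellite-like gene models, repeat-derived entries of the annotation, moved with the same grouping: it was 0.857% to 1.77% in the AS-703026 livers and 0.124% to 0.645% in the other 8, so compound and share cannot be told apart by design. With that share as a covariate, the edgeR fit called none of the 45 against enzastaurin and 2, Fga and Fgl1, against GDC-0941. The log2 differences of Fga in that fit were 1.36 and 1.71, in place of 1.22 and 1.61 without the covariate. Those of Fgl1 were 4.73 and 5.08, in place of 4.30 and 4.76. C3 fell slightly, to 1.05 and 1.18 in place of 1.14 and 1.24. Larger falls were seen in other genes. Pros1 had 0.57 and 0.48 in place of 0.93 and 0.75. C1qb had 0.04 and 0.44 in place of 0.49 and 0.79, and C1qa -0.16 and 0.42 in place of 0.36 and 0.82.

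Fibrinogen is the soluble precursor of the fibrin clot, and its chains α, β and γ are encoded by Fga (chr3:83026076-83033627, plus strand), Fgb (chr3:83040141-83049863, minus strand) and Fgg (chr3:83007724-83015049, plus strand). Fga was at 19676, 8802, 16712 and 12963 CPM in AS-703026 replicates 1 to 4, at 7289, 6599, 5021 and 6006 CPM under enzastaurin, and at 4746, 4974, 4696 and 4666 CPM under GDC-0941. Fgb was at 19246, 7205, 15856 and 11449.8 CPM, at 6312, 5718, 6180.3 and 4973 CPM, and at 4940.3, 5013, 4245 and 4796 CPM in the same order. Fgg was at 17417, 6662, 14965 and 10366 CPM, at 6083, 5511, 5337 and 4987 CPM, and at 4539, 4175, 3984 and 4358 CPM. In each of the 3 genes the lowest AS-703026 library, replicate 2, lay above the highest of the other 8. Enzastaurin lay above GDC-0941 in every library for Fga and Fgg, and overlapped it for Fgb.

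Relative to enzastaurin, Fga was 2.33-fold higher (log2 1.22 ± 0.19 SE, adjusted p 0.00266), Fgb 2.32-fold (log2 1.21 ± 0.22, adjusted p 0.00994) and Fgg 2.25-fold (log2 1.17 ± 0.22, adjusted p 0.00994). Relative to GDC-0941 the folds were 3.05, 2.83 and 2.90, with adjusted p of 0.000312, 0.00293 and 0.00260. These 6 calls held whichever of the 8 libraries of the comparison was left out, with log2 values of 0.96 to 1.79. The fit without a filter on low counts ended the calls of Fgb and Fgg against enzastaurin, with adjusted p of 0.0609 and 0.0645, and kept the other 4. The summed level of the 3 chains was 40331 ± 14730 CPM under AS-703026 (SD, n = 4), 17504 ± 1649 under enzastaurin and 13783 ± 600 under GDC-0941.

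The proportion of the chains to each other varied less from library to library than their levels. Over the 12 livers Fga, Fgb and Fgg spanned 4.22-, 4.53- and 4.37-fold. The CPM of Fgb divided by that of Fga ranged from 0.819 to 1.04 in 11 of the 12 libraries and was 1.23 in enzastaurin replicate 3. Fgg divided by Fga ranged from 0.757 to 0.956 in the same 11 and was 1.06 in that library, where Fga alone was the lowest of its group. An unstranded count could not separate Fgg from Gm30097, which overlaps one of its exons on the other strand.

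Fgl1 (chr8:41191434-41215156, minus strand) encodes a secreted liver protein related to the fibrinogen chains that does not take part in the clot. It was at 4469, 1384, 3667 and 2945 CPM under AS-703026, at 236, 119, 184 and 95.7 CPM under enzastaurin, and at 145, 109, 82.9 and 123 CPM under GDC-0941. Every AS-703026 library was at or above 1384 CPM and every other library at or under 236 CPM, and over the 12 livers its highest level was 53.9 times its lowest, where the next member, F12, spanned 5.17-fold. Fgl1 was 19.7-fold higher than under enzastaurin (log2 4.30 ± 0.43, adjusted p 0.00135) and 27.1-fold higher than under GDC-0941 (log2 4.76 ± 0.44, adjusted p 0.000818). Both calls held in all 8 fits that left out a library, at log2 4.08 to 5.01.

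**Figure D2:**
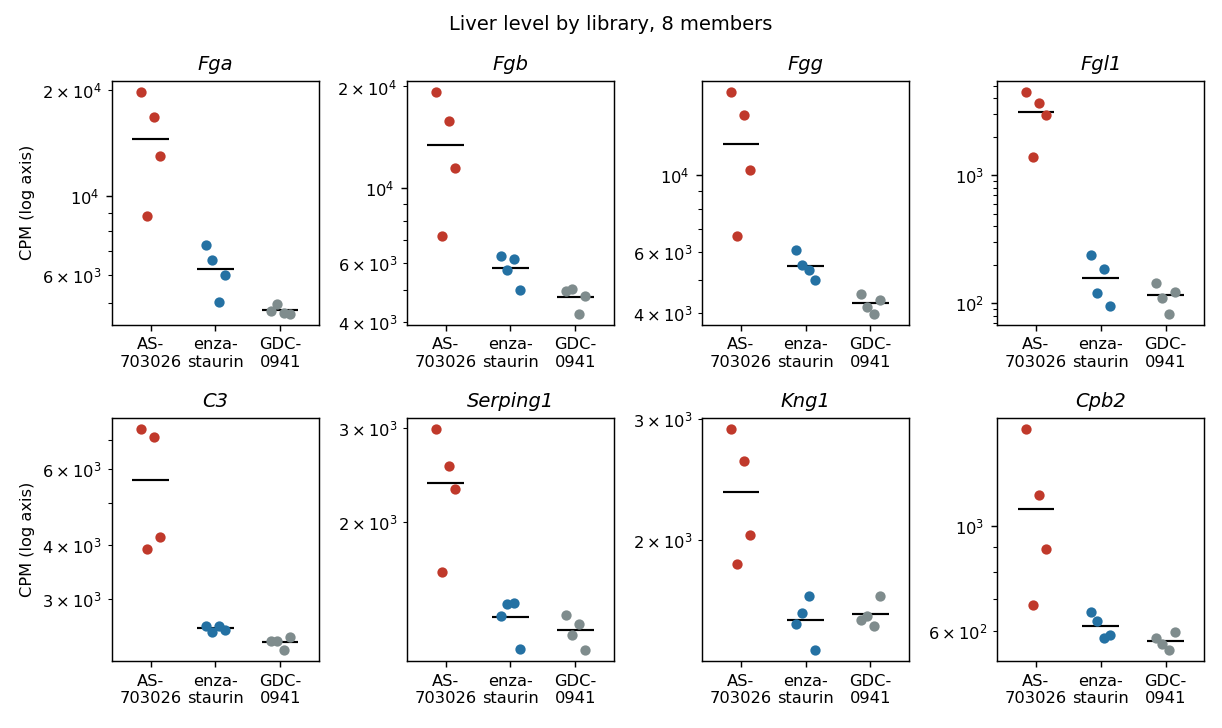
Level of 8 members in each liver library (CPM, log axis, points), with the mean of 4 libraries as a bar, by compound. In each panel the 4 AS-703026 points lie above the 8 others, and Fgl1 shows the widest gap, with every AS-703026 library at or above 1384 CPM and every other library at or under 236 CPM.

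The kininogens, encoded by Kng1 and Kng2 on chromosome 16, are cofactors of the contact system and the precursors of bradykinin. Kng1 was at 2904, 1842, 2608 and 2030.3 CPM under AS-703026, at 1503, 1559.5, 1652 and 1377 CPM under enzastaurin, and at 1523, 1546, 1496 and 1652 CPM under GDC-0941. Kng2 was at 425, 250.1, 358 and 266 CPM, at 198, 221, 198 and 159 CPM, and at 195, 182, 194 and 201 CPM. The AS-703026 libraries lay above the other 8 for both genes, while enzastaurin and GDC-0941 overlapped.

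Kng1 was 1.54-fold and 1.51-fold higher (adjusted p 0.0159 and 0.0163) and Kng2 1.68-fold and 1.69-fold higher (adjusted p 0.00972 and 0.00806) than under enzastaurin and GDC-0941. The 2 genes share sequence: 32.3% of the 30-base words in the last 500 bases of Kng2 transcripts also occur in Kng1, so the split of counts between them is uncertain. The Kng1 call against enzastaurin was lost without AS-703026 replicate 3 or enzastaurin replicate 4, and that against GDC-0941 without AS-703026 replicate 1 or 3 or GDC-0941 replicate 3, with adjusted p of 0.0565 to 0.0696. The Kng2 calls held in all 8 fits of each comparison.

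Among the 8 clotting factor genes proper, F7 and F10 were called and F2, F5, F9, F11, F12 and F13b were not. F7, whose product starts coagulation together with tissue factor, was at 142, 141, 149 and 125 CPM under AS-703026, at 110.4, 103, 89.3 and 90.3 CPM under enzastaurin, and at 84.2, 85.8, 104 and 106 CPM under GDC-0941. F10, the protease that makes thrombin from prothrombin, was at 346, 418, 333 and 315 CPM, at 248, 269, 265 and 262 CPM, and at 232, 255, 257 and 254 CPM. For both genes the 4 AS-703026 libraries lay above the 8 others by small margins.

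F7 was 1.42-fold and 1.47-fold higher than under enzastaurin and GDC-0941 (adjusted p 0.0207 and 0.0104), and F10 was 1.35-fold and 1.41-fold higher (adjusted p 0.0237 and 0.00952). Against GDC-0941 both calls held in all 8 fits that left out a library. Against enzastaurin that of F7 was lost without AS-703026 replicate 1 or 3 or enzastaurin replicate 3 or 4 (adjusted p 0.0526 to 0.0820), and that of F10 without AS-703026 replicate 1 or 3 or enzastaurin replicate 1, 2 or 4 (adjusted p 0.0505 to 0.0730).

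The factors that were not called did not share a direction. F2, prothrombin, the target of factor X, was at 869 to 1119.6 CPM over the 12 livers, and its log2 differences were 0.05 ± 0.10 and 0.10 ± 0.10 SE. F9, the factor missing in haemophilia B, had log2 differences of 0.31 ± 0.11 and 0.32 ± 0.11, with adjusted p of 0.147 and 0.124. F11, a factor of the contact-driven route, was at 28.4, 49.8, 34.5 and 44.8 CPM under AS-703026, with a mean of 55.4 CPM under enzastaurin and 54.5 CPM under GDC-0941, and its log2 differences of -0.51 ± 0.16 and -0.49 ± 0.16 had adjusted p of 0.0956 and 0.104. F5 and F13b, the cofactor of factor X and the carrier subunit of the clot-stabilising factor XIII, had log2 differences between -0.19 and 0.21 with adjusted p of 0.469 or more.

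F12, the starter of the contact route, varied between animals within each group. It was at 432, 328, 435 and 442 CPM under AS-703026, at 656, 649, 130.2 and 595 CPM under enzastaurin, and at 145, 356, 127 and 149 CPM under GDC-0941. Enzastaurin replicate 3 was at the level of 3 GDC-0941 libraries, and GDC-0941 replicate 2 was at that of AS-703026 replicate 2. The log2 difference of F12 between enzastaurin and GDC-0941 was 1.38 ± 0.50 (adjusted p 0.569).

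Hc, the gene of complement C5, also fell into 2 levels that did not follow the compounds. It was at 302, 208, 321 and 237 CPM under AS-703026, at 199, 299.99, 297 and 317 CPM under enzastaurin, and at 297, 185, 178 and 304 CPM under GDC-0941. No library lay between 237 and 297 CPM. Its log2 differences were -0.06 ± 0.21 and 0.16 ± 0.21. The 2 genes did not sort the animals alike: enzastaurin replicate 3, the lowest of its group for F12, was at 297 CPM for Hc.

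**Figure D3:**
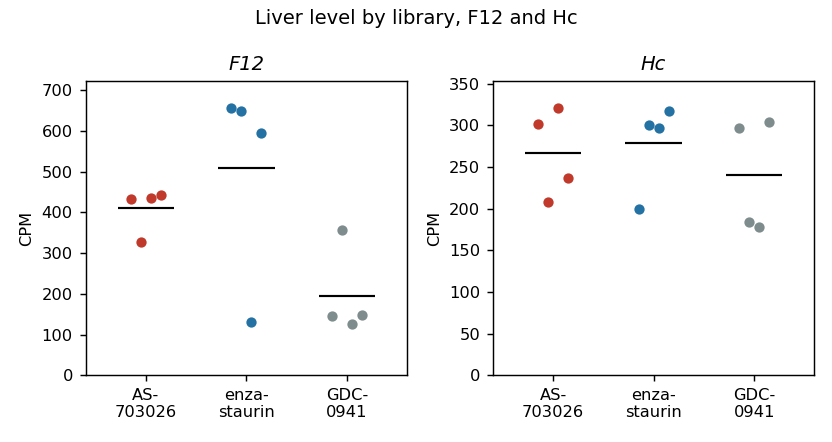
Level of F12 and Hc in each liver library (CPM, linear axis from 0, points), with the mean of 4 libraries as a bar, by compound. F12 has 1 library apart from the other 3 in each group, at 328, 130.2 and 356 CPM, and Hc has libraries at 178 to 237 and at 297 to 321 CPM under each compound, with 199 CPM the only low one under enzastaurin.

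In complement, C3 (chr17:57203970-57228136, minus strand), the protein on which the 3 activation routes converge, had the largest called difference. C3 was at 7420.2, 3911, 7097 and 4172 CPM under AS-703026, at 2608, 2525, 2601 and 2549.7 CPM under enzastaurin, and at 2398, 2404, 2286 and 2453 CPM under GDC-0941. The AS-703026 livers formed a pair at 3911 and 4172 CPM and a pair at 7097 and 7420.2 CPM, and the 8 others spanned only 2286 to 2608 CPM. C3 was 2.20-fold higher than under enzastaurin (log2 1.14 ± 0.17, adjusted p 0.00219) and 2.37-fold higher than under GDC-0941 (log2 1.24 ± 0.17, adjusted p 0.000948). Both calls held in all 8 fits that left out a library.

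Serping1 (chr2:84765387-84775444, minus strand) encodes C1 inhibitor, which blocks C1r, C1s, the MASP proteases, plasma kallikrein and factor XII. It was at 2987, 1611, 2543 and 2299 CPM under AS-703026, at 1332, 1401, 1411 and 1155 CPM under enzastaurin, and at 1339, 1229, 1287 and 1148 CPM under GDC-0941. The AS-703026 libraries were all at or above 1611 CPM and the others all at or under 1411 CPM. Serping1 was 1.78-fold higher than under enzastaurin (log2 0.83 ± 0.15, adjusted p 0.00507) and 1.89-fold higher than under GDC-0941 (log2 0.92 ± 0.15, adjusted p 0.00274), and no single library ended either call.

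Of the 6 terminal components, C8a alone was called. C8a, the α chain of C8, was at 1395, 1126, 1402 and 1270.0 CPM under AS-703026, at 912, 975, 875 and 1057 CPM under enzastaurin, and at 794, 919, 858 and 856 CPM under GDC-0941. The 4 AS-703026 libraries lay above the 8 others, among which the 2 compounds overlapped, and C8a was 1.36-fold and 1.52-fold higher than under enzastaurin and GDC-0941 (adjusted p 0.0281 and 0.00464). Its call against enzastaurin was lost without AS-703026 replicate 1, 3 or 4 or enzastaurin replicate 1, 2 or 3 (adjusted p 0.0529 to 0.102). The genes of the other chains of the same protein had log2 differences of -0.01 ± 0.12 and 0.23 ± 0.12 (C8b) and -0.37 ± 0.10 and -0.18 ± 0.10 (C8g), none of them called, with adjusted p of 0.0637 to 0.990. C6 and C9, which extend the pore, had log2 differences of -0.31 ± 0.14 and -0.06 ± 0.14, and of 0.30 ± 0.13 and 0.38 ± 0.13, with adjusted p of 0.143 or more.

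Mbl1, one of the 2 mannose-binding lectins, was at 587, 332, 473 and 418 CPM under AS-703026, at 346, 295, 315 and 344 CPM under enzastaurin, and at 315, 276, 310.0 and 318 CPM under GDC-0941. AS-703026 replicate 2 fell within the enzastaurin range, and the other 3 lay above it. Mbl1 was 1.49-fold higher than under GDC-0941 (adjusted p 0.0248), while against enzastaurin its log2 difference was 0.48 ± 0.14 (adjusted p 0.0644). Cfi, the protease that inactivates C3b, was at 548, 480.4, 607 and 463 CPM under AS-703026, at 419, 402, 444 and 325 CPM under enzastaurin, and at 387, 377, 361 and 393 CPM under GDC-0941. Its AS-703026 libraries lay above the 8 others, with the GDC-0941 libraries inside the enzastaurin range, and it was 1.38-fold higher than under GDC-0941 (adjusted p 0.0295), with an adjusted p of 0.0666 against enzastaurin. Both calls were lost without AS-703026 replicate 1 or 3 or any one of the 4 GDC-0941 libraries, at adjusted p of 0.0510 to 0.127.

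C1qa and C1qb encode chains of C1q, which in tissues comes mainly from macrophages. C1qa was at 43.3, 32.6, 44.7 and 33.0 CPM under AS-703026, at 22.7, 28.2, 44.7 and 25.3 CPM under enzastaurin, and at 24.4, 16.9, 24.6 and 22.6 CPM under GDC-0941. C1qb was at 99.7, 85.2, 112 and 96.5 CPM, at 47.6, 88.2, 78.6 and 65.3 CPM, and at 63.5, 36.0, 58.9 and 71.3 CPM. AS-703026 lay above GDC-0941 in every library for both genes and overlapped enzastaurin. Relative to GDC-0941 C1qa was 1.76-fold and C1qb 1.73-fold higher (adjusted p 0.0293 and 0.0479), and the third chain, C1qc, had a log2 difference of 0.74 ± 0.20 with an adjusted p of 0.0544.

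The C1qa call was lost without AS-703026 replicate 1 or 3 or GDC-0941 replicate 2 or 4, and the C1qb call without any one library but GDC-0941 replicate 4, at adjusted p of up to 0.156. Of 15 tested markers of Kupffer cells and macrophages, 3 (Vsig4, Folr2 and Fcer1g) were also higher than under GDC-0941 and none was called against enzastaurin. The 16 listed markers, tested or not, summed to 583 to 849 CPM under AS-703026, 388 to 729 under enzastaurin and 318 to 496 under GDC-0941, with no marker at 0 throughout a group. The part of macrophage number in the C1q result was not tested, and in bulk tissue more cells of a type and more RNA per cell cannot be told apart.

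Of the remaining complement genes, C4b, the classical pathway partner of C2, was at 400.0, 173, 263 and 236 CPM under AS-703026, with means of 137 ± 31.0 CPM under enzastaurin and 169 ± 32.2 CPM under GDC-0941 (SD, n = 4). Its log2 differences of 0.98 ± 0.25 and 0.67 ± 0.24 had adjusted p of 0.0602 and 0.188. Its 3′ end cannot be told apart from that of C4a over 58.8% of its words. The proteases C1ra, C1s1, C2, Masp1 and Masp2, the lectin Mbl2, the inhibitor C4bp and the alternative pathway protease Cfb had log2 differences of -0.08 to 0.80, none called, with adjusted p of 0.244 or more. Cfb was at no more than 8.31 CPM in any liver, and 71.1% of its 3′ words also occur in the readthrough model Gm20547.

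Of the 4 anticoagulant genes, Pros1 was called and Serpinc1, Serpind1 and Proc were not. Pros1, which encodes protein S, the cofactor of activated protein C, was at 69.1, 42.6, 59.8 and 47.2 CPM under AS-703026, at 29.2, 27.7, 39.3 and 20.5 CPM under enzastaurin, and at 34.3, 30.3, 37.4 and 29.5 CPM under GDC-0941. The AS-703026 libraries lay above the 8 others, at 1.91-fold against enzastaurin (adjusted p 0.00972, called in all 8 fits that left out a library) and 1.68-fold against GDC-0941 (adjusted p 0.0279). The second call was lost without AS-703026 replicate 1 or 3 or GDC-0941 replicate 1, 2 or 4 (adjusted p 0.0548 to 0.119).

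Serpinc1, antithrombin, was at 1535, 1611, 1638 and 1438 CPM under AS-703026, at 1470.5, 1423, 1628 and 1523 CPM under enzastaurin, and at 1517, 1299.7, 1418 and 1626 CPM under GDC-0941. Serpind1, heparin cofactor II, was at 749, 840.2, 809.7 and 788 CPM, at 909.8, 903, 954 and 887 CPM, and at 881, 887, 809 and 874 CPM. The Serpinc1 libraries overlapped across the 3 groups, and those of Serpind1 under AS-703026 lay below enzastaurin and overlapped GDC-0941. Serpinc1 had log2 differences of 0.04 ± 0.10 and 0.09 ± 0.10, Serpind1 of -0.20 ± 0.09 and -0.11 ± 0.09, and Proc, protein C itself, of -0.10 ± 0.10 and -0.07 ± 0.10, with adjusted p of 0.301 or more. The summed level of the 4 genes was 2720 ± 114 CPM under AS-703026, 2789 ± 130 under enzastaurin and 2689 ± 158 under GDC-0941.

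In fibrinolysis, Cpb2 encodes a carboxypeptidase that slows clot lysis by trimming fibrin. It was at 1598, 682, 1161 and 893 CPM under AS-703026, at 659, 631, 580.0 and 588 CPM under enzastaurin, and at 581, 564, 547 and 597 CPM under GDC-0941. The lowest AS-703026 library, replicate 2, lay just above the highest enzastaurin library, and replicate 1 was the highest of the 12. Cpb2 was 1.77-fold and 1.90-fold higher (adjusted p 0.0280 and 0.0123), and the calls were lost without AS-703026 replicate 3 (adjusted p 0.0519 against GDC-0941) and, against enzastaurin, without any one enzastaurin library (adjusted p up to 0.0959).

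Vtn, vitronectin, an adhesive protein that stabilises the plasminogen activator inhibitor PAI, was at 2572, 1647, 2258 and 1927 CPM under AS-703026, at 1504, 1509, 1349 and 1433 CPM under enzastaurin, and at 1198, 1199, 1362 and 1375 CPM under GDC-0941. Hrg, a histidine-rich glycoprotein that binds plasminogen and heparin, was at 626, 508, 598 and 512 CPM, at 463, 429, 387 and 443 CPM, and at 389.7, 348, 399.9 and 461 CPM. The AS-703026 libraries stood above the 8 others for both genes. Vtn was 1.45-fold and 1.64-fold higher (adjusted p 0.0271 and 0.00479), and Hrg was 1.41-fold higher than under GDC-0941 (adjusted p 0.0182) with an adjusted p of 0.0730 against enzastaurin. The Vtn call against enzastaurin was lost without AS-703026 replicate 1 or 3 or any one enzastaurin library (adjusted p 0.0510 to 0.0915), and the Hrg call without AS-703026 replicate 1 or 3 or GDC-0941 replicate 1, 2 or 3 (adjusted p 0.0513 to 0.0710).

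Plg, plasminogen, the precursor of plasmin, was at 2149, 1703, 1989 and 1789 CPM under AS-703026, at 1852, 1669.8, 1719.8 and 1395 CPM under enzastaurin, and at 1685, 1662, 1504 and 1565 CPM under GDC-0941. Serpinf2, the plasmin inhibitor α2-antiplasmin, was at 422 to 696 CPM over the 12 livers. Plg was above GDC-0941 in every AS-703026 library but overlapped enzastaurin, and its log2 differences were 0.20 ± 0.11 and 0.25 ± 0.11, against 0.16 ± 0.12 and 0.30 ± 0.12 for Serpinf2. None of the 4 was called, with adjusted p of 0.189 or more.

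**Figure D4:**
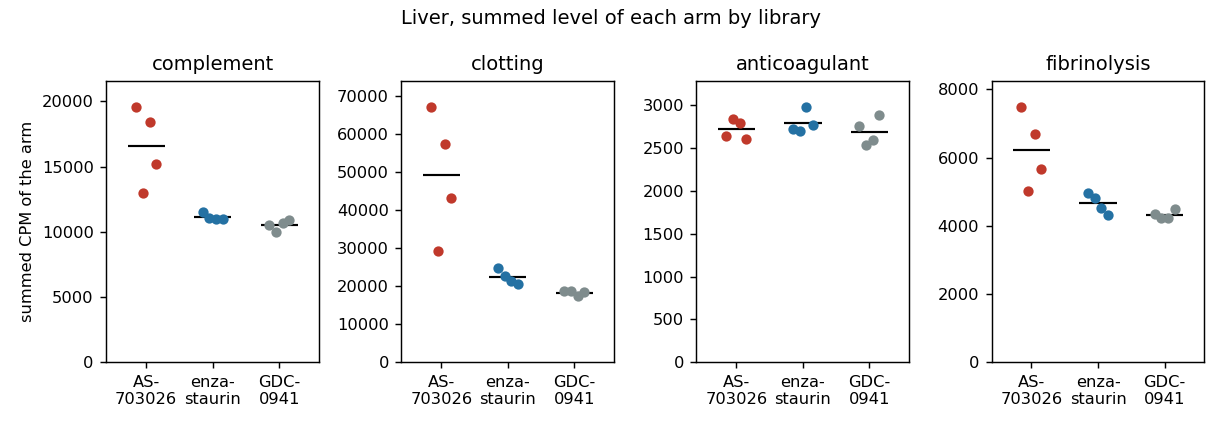
Summed level of the tested genes of each arm in each liver library (CPM, linear axis from 0, points), with the mean of 4 libraries as a bar, by compound. Clotting lies at 29349 to 67286 CPM under AS-703026 and at no more than 24927 CPM elsewhere, complement and fibrinolysis show smaller steps, and the anticoagulant sums overlap.

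By arm, AS-703026 was called higher against enzastaurin and GDC-0941 in 3 and 7 of 22 complement genes, 8 and 8 of 14 clotting genes, 1 and 1 of 4 anticoagulant genes, and 2 and 3 of 5 fibrinolysis genes. Their median log2 differences were 0.34 and 0.31, 0.47 and 0.57, -0.03 and 0.01, and 0.38 and 0.49. Within clotting, the calls covered the 4 genes of the fibrinogen group, both kininogens and 2 of the 8 factor genes. The fibrinogen group counts Fgl1, whose product does not take part in the clot. The 45 genes summed to 74778 ± 20630 CPM under AS-703026, 41010 ± 2387 under enzastaurin and 35902 ± 925 under GDC-0941 (SD, n = 4). The spread of this sum was far wider between AS-703026 livers than within the other groups. The 3 fibrinogen chains held 40331 ± 14730 CPM of the AS-703026 sum. The anticoagulant sums did not spread more under AS-703026, with SDs of 114, 130 and 158 CPM in the same order.

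The 4 AS-703026 livers kept much the same order from gene to gene. Of the 14 genes called in both comparisons, replicate 1 was the highest for 11 and replicate 2 the lowest for 12. Leaving out replicate 2 gave 19 calls against enzastaurin and 20 against GDC-0941, leaving out replicate 1 gave 10 and 12, and leaving out replicate 3 gave 8 and 11. The 8 were C3, Serping1, Fga, Fgb, Fgg, Fgl1, Kng2 and Pros1, which are also the genes called in every fit against enzastaurin that left out a library.

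Acute phase and interleukin-6 signalling genes moved with the same grouping. Of 22 tested genes of that list, 19 were higher than under enzastaurin and 18 higher than under GDC-0941, with median log2 differences of 2.14 and 2.27. The list summed to 123954, 18184, 76824 and 34636 CPM in AS-703026 replicates 1 to 4, the same order as the fibrinogen chains, and to at most 11777 CPM in the other livers. Saa1, serum amyloid A, was at 21494, 313, 9773 and 2330 CPM under AS-703026 and at no more than 72.0 CPM elsewhere. Stat3, the transcription factor of interleukin-6 signalling, had log2 differences of 1.12 ± 0.17 and 1.18 ± 0.17 (adjusted p 0.00220 and 0.00130).

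Hepatocyte markers did not rise as a list: 1 of 17 was called against enzastaurin (Ambp) and 2 against GDC-0941 (Trf and Ambp), with medians of -0.21 and -0.05, and the list summed to 98406 to 113353 CPM under AS-703026 and 113324 to 133643 elsewhere. The neutrophil genes S100a8 and S100a9, the only 2 of 11 tested, were higher in both comparisons. The 11 summed to 29.9 to 85.7 CPM under AS-703026 and at most 10.9 CPM elsewhere, with Ltf at 0 in every AS-703026 liver and Camp and Mpo at 0 in every other one. Markers of stellate cells gave 1 call of 8 in each comparison (Dcn, higher), and those of endothelial cells (9 tested), cholangiocytes (2) and adipocytes (2) gave none. Their part in the results above was not tested.

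Complement and clotting genes outside the 46 gave fewer calls. Of 15 other complement genes tested, 4 were higher in both comparisons, with Clu, Crp and Apcs among them, of which Apcs is also on the acute phase list. Clu, clusterin, which keeps the terminal complex from inserting into membranes, was at 2458, 1736, 2106 and 1984 CPM under AS-703026 and at 1239 to 1474 CPM in the other livers, with log2 differences of 0.57 ± 0.11 and 0.60 ± 0.11 (adjusted p 0.00998 and 0.00685). Of 12 other clotting and fibrinolysis genes, Serpina10, the inhibitor of factor X that works with protein Z, was higher in both (log2 1.34 ± 0.25 and 1.43 ± 0.25, adjusted p 0.0159 and 0.0104), and Pzp was higher against enzastaurin (log2 0.50 ± 0.12, adjusted p 0.0319). None of either list was called lower.

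Enzastaurin and GDC-0941 livers were not separated by any of the 45 genes, nor by any of the 9490 in the edgeR fit (0% called). At an unadjusted p under 0.05, 2 of the 45 differed, and DESeq2 and limma voom called none of the 45. C1qa was 1.37-fold and F12 2.61-fold higher under enzastaurin (adjusted p 0.591 and 0.569), and the 3 fibrinogen chains had log2 differences of 0.29 to 0.38, with standard errors of 0.19 to 0.22. The median over the 45 was 0.08.

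Kidney gave a contrast, with lower levels of these genes than in liver. In the fit over the 24 libraries of the 3 shared compounds in both organs, all 45 genes were lower in kidney than in liver, where 77.1% of all 12262 genes tested were called, 39% higher and 38.1% lower in kidney. DESeq2 called 44 of them, and each edgeR fit that left out 1 library called all 45. In the 28 kidney libraries without raised Alb, the median level was 0 for 10 of the 45, under 1 CPM for 18, and 10 CPM or more for 13.

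F13b, Serpinf2, Proc and Kng2 were among the genes that differed least between kidney and liver. F13b was at a median of 194 CPM (103 to 313) over the 28 kidney libraries, Serpinf2 at 231 CPM (131 to 310.2), Proc at 132 CPM (94.5 to 158) and Kng2 at 61.7 CPM (42.8 to 125). Their log2 differences from liver were -1.62, -1.87, -2.02 and -2.48, beside -2.00 for Pros1 and -2.24 for C2. Kng1 differed from Kng2 in this: its kidney median was 0.254 CPM. In AZD8055 replicate 4 the first 4 were the lowest of the kidney libraries, at 55.0, 87.9, 37.0 and 33.9 CPM. Adipocyte markers summed to 57643 CPM in that library. The 7 proximal tubule markers summed to 13304.5 CPM in the lowest AZD8055 library, against a median of 57023.9 CPM in that group. The part of tissue content in these low levels was not tested.

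**Figure D5:**
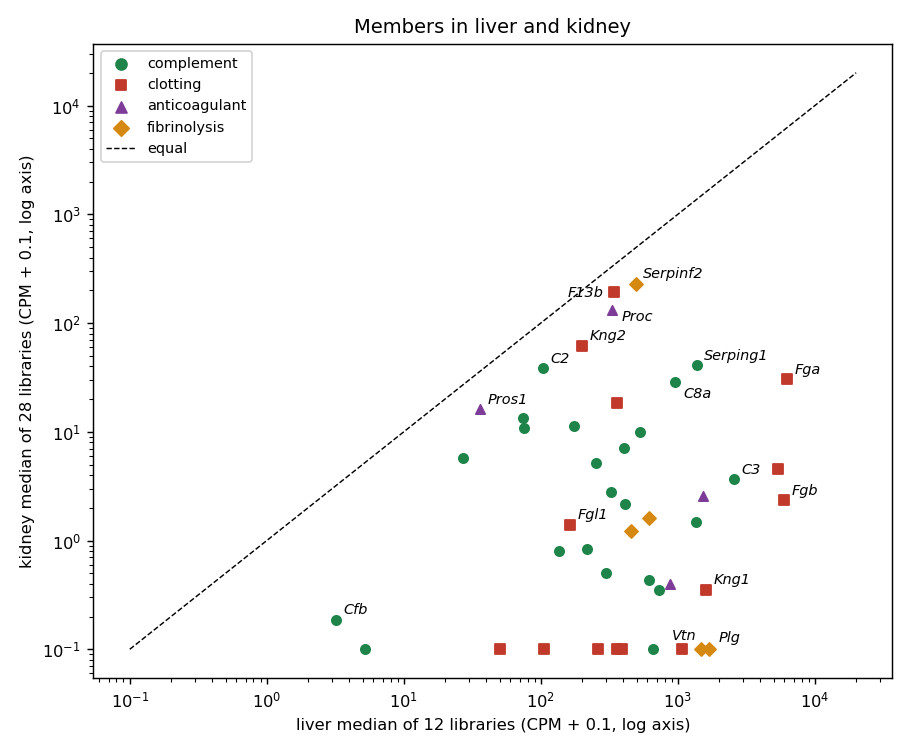
Median level of each of the 45 genes in 12 liver libraries (horizontal) and in the 28 kidney libraries without raised Alb (vertical), both as CPM + 0.1 on log axes, with symbols by arm. Every point lies under the line of equal level, F13b, Serpinf2, Proc, C2, Pros1 and Kng2 lie nearest to it, and 10 genes lie at the bottom with a kidney median of 0.

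Against the kidney controls, 1 of the 24 tested genes was called under AS-703026 and 1 under AZD8055, and none under ascorbyl-palmitate, enzastaurin, GDC-0941 or KU0063794. Over all 11719 genes, 0.734% were called under AS-703026 (0.316% higher, 0.418% lower) and 5.38% under AZD8055 (3.69% higher, 1.69% lower). Under ascorbyl-palmitate, enzastaurin, GDC-0941 and KU0063794, 0.0427%, 0%, 0.179% and 0.0427% were called, with 0.0171% called higher under GDC-0941. At an unadjusted p under 0.05, 1, 2, 0 and 2 of the 24 differed in these 4. DESeq2 called none of them, and limma voom called 1 under KU0063794. The 6 comparisons share the 6 control libraries.

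Serping1 was at 61.2, 50.6, 60.6 and 182 CPM in the AS-703026 kidneys, and at 34.0, 58.3, 24.4, 33.2, 28.4 and 34.5 CPM in the controls. Replicate 4 stood far above the other AS-703026 kidneys, of which replicate 2 lay within the control range and replicates 1 and 3 just above it. The log2 difference was 1.33 ± 0.33 (adjusted p 0.0477). Without AS-703026 replicate 4 it was 0.71 (adjusted p 0.415), and leaving out control replicate 1, 3, 4, 5 or 6 also ended the call (adjusted p 0.0583 to 0.117). Without the 2 kidney libraries with raised Alb it was 1.34 (adjusted p 0.0213). The satellite-like share was 16.6% in AS-703026 replicate 4 and 29.0% in replicate 2, against 0.0555% to 12.5% in the controls, and with it as a covariate the adjusted p was 0.0929.

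C3 was at 3.42, 2.79, 3.66 and 324 CPM in the AZD8055 kidneys and at 3.29, 9.43, 0, 2.95, 0 and 6.98 CPM in the controls. Replicate 4 alone was high, and the other 3 lay within the control range. The fitted log2 difference of 4.34 ± 1.103 (adjusted p 0.0244) became -0.30 without that library (adjusted p 0.951) and -0.29 without both libraries with raised Alb (adjusted p 0.928), and leaving out control replicate 3, 4 or 5 ended the call at adjusted p of 0.0560 to 0.0657. In AZD8055 replicate 4 the CPM of C3 was 6.85 times that of Fgb, against 0.364 to 0.543 times in the 12 livers and 0.355 in enzastaurin replicate 1. Among the other 28 kidneys with any Fgb count the ratio ran from 0 to 55, so 6.85 lies within their range. Fgb was at no more than 7.69 CPM in those 28. Adipocyte markers summed to 57643 CPM in AZD8055 replicate 4 and to 111 to 471 CPM in the 28 other kidneys, and their part in its C3 level was not tested.

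The fibrinogen chains in kidney were raised in the same 2 libraries. Fga reached 174 CPM in the first replicate of enzastaurin, 115 CPM in the fourth of AZD8055, and lay at 12.5 to 75.8 CPM in the other 28. Fgb was at 93.7 and 47.3 CPM in those 2 and at no more than 7.69 CPM in the rest. Under AS-703026 in kidney, Fga, Fgb and Fgg had log2 differences from control of 0.48 ± 0.56, 0.18 ± 1.63 and -0.00, none called, and Fgl1 did not pass the filter on low counts, with at most 7.99 CPM in any kidney.

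Whether the differences among the 3 compounds differ between liver and kidney was tested directly by an interaction over 24 libraries. The edgeR test called none of the 45, against 0.139% of 12262 genes, with the lowest adjusted p at 0.0894 (F11) and 0.0988 (Serpinf2). An unadjusted p under 0.05 was seen for 14 of the 45. The share of all genes at that cut-off is not given here, so the 14 cannot be read as an excess. DESeq2 called 7, limma voom none, and the edgeR fit without a filter on low counts 7. By the edgeR test the liver differences of fibrinogen and C3 are therefore not shown to differ from those in kidney, where these genes rest on few counts. Their adjusted p was 0.418 (Fga), 0.500 (Fgb), 0.604 (Fgg) and 0.813 (C3). Whether they were among the 7 called by the other fits is not given here. The 24 libraries include kidney enzastaurin replicate 1, with raised Alb, and edgeR fits that left out 1 library called 0 to 2 of the 45.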

How the data were processed

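Gene counts from CEL-seq of 12 liver and 30 kidney libraries were used as the authors deposited them, as raw whole-number counts in 1 table. Per the submitters' processing notes, the tools were bcl2fastq 1.8.4, Trimmomatic 0.32, STAR 2.5.2b and featureCounts 1.5 with genome build mm10. For the annotation release, the strand setting and the handling of molecular identifiers, nothing is stated in the labels or notes used.

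Groups came from the sample labels. Genes were matched by Ensembl identifier, and coordinates come from a GENCODE annotation of GRCm38. Counts were filtered (minimum count 10, minimum total 15), scaled by TMM and tested with edgeR 4.0.16 (quasi-likelihood test, R 4.3.3) over all genes passing the filter, with the groups of an organ in 1 fit and Benjamini-Hochberg adjustment at 0.05. The tests were tried on simulated data. Alternatives were DESeq2 1.42.0, limma 3.58.1 voom, other scaling, no filter, 2 groups alone, a replicate block, the satellite-like share as a covariate, leaving out each library and, added after seeing the data, leaving out the 2 kidney libraries with raised Alb. Figures were drawn with Python 3.11.15 and matplotlib 3.10.9.

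By-library values are given for members called in a liver comparison or in kidney and for the 2 members of each arm with the highest liver level, and F12, Hc, F11 and C4b were added after their values were seen. The members and lists were chosen with earlier results of these data known. Another complement gene outside the members is not reported here.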

Additional observations from a re-analysis of the deposited data

Results flagged for a closer look

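Over 149 pairs of a gene and a group of 4 to 6 libraries, 17 had a highest or lowest library farther from the rest than Dixon's 95% limit allows. Chance gives about 1 in 20 such pairs, but in kidney only the 2 genes called there were examined, and those calls rest on libraries that stand apart, so the 17 cannot be read against that rate. F12 did so in all 3 liver groups, at 328 CPM in AS-703026 replicate 2, 130.2 CPM in enzastaurin replicate 3 and 356 CPM in GDC-0941 replicate 2. In the GDC-0941 livers, replicate 3 stood apart for Masp1 (7.36 CPM), Cfb (5.12 CPM), C6 (271 CPM) and Serpind1 (809 CPM), and replicate 1 for F5 (454 CPM) and F10 (232 CPM). In the AS-703026 livers, replicate 1 stood apart for Cfb (8.31 CPM), and replicate 4 for C9 (2106 CPM) and F13b (353 CPM). Enzastaurin replicate 1 was the low library for Hc (199 CPM). In kidney, Serping1 stood apart in AS-703026 replicate 4 (182 CPM) and control replicate 2 (58.3 CPM), and C3 in AZD8055 replicate 4 (324 CPM) and enzastaurin replicate 1 (33.2 CPM).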

How the results depend on the processing

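The liver calls among the 45 genes (14 against enzastaurin, 19 against GDC-0941, 17 over the 3 groups) were within 1.5 times of these counts under other scaling, no filter, DESeq2 and limma voom. The fit without a filter lost Fgb and Fgg against enzastaurin. With 2 groups alone, 9 were called against enzastaurin, without C8a, Cpb2, F10, Kng1 and Vtn. With a covariate for the satellite-like share, 0, 2 and 0 were called, and C1qa against enzastaurin turned to a log2 value of -0.16. Leaving out 1 library gave 8 to 19, 11 to 20 and 10 to 20 calls, and 0 between enzastaurin and GDC-0941. Over all genes, the fit without a filter called 524 and 621 against 280 and 318. In kidney, the single AS-703026 call became 0 with 2 groups alone, no filter, the replicate block or the covariate, and 0 to 1 without a library. The single AZD8055 call became 0 with 2 groups alone, DESeq2, limma voom, no filter, the replicate block or without the 2 libraries with raised Alb (log2 of C3 -0.29), and 0 to 1 without a library (log2 of C3 -0.30 to 4.72). For 2 groups alone and DESeq2 no lost call of C3 was recorded, so these 2 fits may not have tested it. For KU0063794 limma voom gave 1 call. The interaction gave 7 calls with DESeq2 and with no filter, and 0 to 2 without a library. The cause of these changes was not tested.

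With replicate number as a block, 11, 19 and 15 liver calls were made, and C8a, F7 and Vtn against enzastaurin and C1qb against GDC-0941 were not among them. The labels give only a number, and same-numbered libraries did not deviate together (median correlation -0.03 over 12 liver pairs, -0.02 over 84 kidney pairs), so the numbers were not taken as pairs. Low counts limit the kidney values of most members.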
